A study of Mus musculus with 12 samples.

Results

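The 36 genes described here encode the machinery of fatty acid oxidation and ketone body formation in mouse liver, together with other targets of the nuclear receptor PPARA. They were named by gene symbol from pathway knowledge, with earlier results of these data known, and all 36 were found among the 53796 genes in the expression table. All 36 also passed the filter for testing, which kept the 11728 genes that reached 1 FPKM in 3 or more of the 12 libraries. FPKM is the number of fragments scaled by transcript length and by the fragments of the library, as the authors computed it. By role, the set holds 1 receptor, 6 genes of fatty acid binding, activation and carnitine transfer, 10 of mitochondrial beta-oxidation, 3 of electron transfer, 6 of peroxisomal oxidation, 3 of omega-oxidation, 2 of ketone body metabolism, 3 acyl-CoA thioesterases and 2 further PPARA targets.

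The measurements come from total RNA of mouse liver, in 4 groups of 3 libraries each. The RIPK1 D138N group carries a point mutation known to remove the kinase activity of RIPK1, which relays signals from TNF receptors towards inflammation or cell death. The TNFR1/2 KO group is labelled as a knockout of both receptors of the cytokine TNF. The WT group is wild type, and the Sham group is also labelled wild type in genotype. Only Sham carries a sham label, and the ischemia arm of the other 3 groups was read from the series title and design text. The sources used here do not give strain, age, allele details or the time after operation. Sham libraries of either mutant were not analysed here, so a baseline difference of the genotypes and a changed response to ischemia cannot be told apart. The labels do not say that repeats are separate animals, and p-values measure only the spread between these libraries.

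The summed FPKM over all genes was 489348 to 518580 in RIPK1 D138N, 441296 to 512931 in TNFR1/2 KO, 288934 to 303514 in WT and 649373 to 750501 in Sham, and 10135 to 10653 genes reached 1 FPKM per library. Tnfrsf1a, which encodes TNFR1, averaged 19.8 ± 1.09 FPKM in RIPK1 D138N, 18.5 ± 3.28 FPKM in TNFR1/2 KO, 35.1 ± 2.90 FPKM in WT and 69.5 ± 16.5 FPKM in Sham (SD, n = 3). Tnfrsf1b, which encodes TNFR2, averaged 6.83 ± 2.70 FPKM in TNFR1/2 KO and 9.51 FPKM in WT, and Ripk1 averaged 3.48 FPKM in RIPK1 D138N and 3.88 FPKM in WT. Transcripts of both receptors are thus still listed in the libraries labelled TNFR1/2 KO, and a gene-level value does not check a partial deletion or a point mutation. Summed markers of hepatocytes, the main cell type of liver, were 27219 to 27863 FPKM in RIPK1 D138N, 22854 to 27196.5 FPKM in TNFR1/2 KO, 8991 to 12393 FPKM in WT and 43969 to 52400.4 FPKM in Sham. Alb, a defining hepatocyte gene, is listed at 0 in every library, and Serpina1c is listed at 0 in TNFR1/2 KO. RIPK1 D138N replicates 2 and 3 had 20.1 and 23.4 FPKM of Xist, expressed from the inactive X chromosome, while no other library exceeded 0.0824 FPKM. Ddx3y, a gene of the Y chromosome, read 0.0176 and 0 FPKM in these replicates and 11.97 to 37.4 FPKM in all other libraries. Uty, Kdm5d and Eif2s3y, also on the Y chromosome, read at most 0.0239 FPKM in the same replicates and more in all others. By these genes, sex looks unbalanced between the groups. These 2 libraries stand apart from the rest in several genes below, and several of the results they touch are also given without them.

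Fatty acids entering a hepatocyte are bound, activated to acyl-CoA and passed as carnitine esters into mitochondria, where each round of beta-oxidation yields acetyl-CoA and reduced cofactors. Peroxisomes shorten the longest chains, omega-oxidation in the endoplasmic reticulum oxidises the methyl end, and acetyl-CoA in excess of need leaves the liver as ketone bodies. PPARA binds fatty acids and, with its partner RXR, activates many genes of all these routes, and it is known for its role in the fasted liver.

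PPARA with RXR is known to bind direct repeats of AGGTCA spaced by 1 base, so the promoters of the members were searched for that motif. RefSeq promoter windows on GRCm38.p6, from 250 bases before to 50 after the start, matched 29 of the 36 genes. On either strand, AGGTCA was present in windows of 5 of these 29 genes, Acadm, Acadvl, Acot4, Cpt1a and Fabp1, and in 16.3% of all 32851 windows. The exact repeat AGGTCANAGGTCA was in none of the 29 and in 0.0396% of all windows. The looser AGGNCANAGGNCA, which includes the exact repeat, was in 1 of the 29, Fabp1, and in 0.381% of all windows. A match is a run of letters in these windows and no measurement of binding, and sites elsewhere were not searched. The windows of Fabp1 and Cpt1a are shown because both hold a match and the genes stand at the entry to oxidation, with matches in capitals (the looser repeat and a single AGGTCA in Fabp1, a single AGGTCA in Cpt1a, each read on the opposite strand). The Hadhb window is shown because Hadhb and Hadha, which encode the subunits of 1 enzyme, lie 85 bases apart on opposite strands, and their windows overlap by 228 bases. It holds no match.
Fabp1 (chr6:71199629-71199928, plus strand): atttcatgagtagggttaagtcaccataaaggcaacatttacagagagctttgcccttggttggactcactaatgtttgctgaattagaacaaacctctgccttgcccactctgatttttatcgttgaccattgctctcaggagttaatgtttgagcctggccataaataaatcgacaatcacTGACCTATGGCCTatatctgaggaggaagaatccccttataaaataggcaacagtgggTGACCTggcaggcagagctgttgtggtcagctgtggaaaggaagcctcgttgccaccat
Cpt1a (chr19:3323051-3323350, plus strand): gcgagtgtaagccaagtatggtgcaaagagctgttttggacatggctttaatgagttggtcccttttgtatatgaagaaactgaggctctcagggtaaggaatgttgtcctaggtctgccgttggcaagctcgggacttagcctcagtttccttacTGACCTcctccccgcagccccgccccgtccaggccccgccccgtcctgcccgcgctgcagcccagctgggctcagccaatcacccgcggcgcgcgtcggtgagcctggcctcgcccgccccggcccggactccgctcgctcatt
Hadhb (chr5:30155003-30155302, plus strand): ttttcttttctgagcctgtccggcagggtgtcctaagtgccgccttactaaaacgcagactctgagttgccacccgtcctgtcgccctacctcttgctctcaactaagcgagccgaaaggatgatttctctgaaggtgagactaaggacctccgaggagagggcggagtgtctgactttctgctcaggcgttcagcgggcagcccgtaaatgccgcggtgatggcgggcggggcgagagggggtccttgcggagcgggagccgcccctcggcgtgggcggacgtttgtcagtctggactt

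In wild-type liver, nearly the whole pathway was lower after ischemia. Of the 36 genes, 32 were lower in WT than in Sham, against a background of 41.9% of the 11728 genes tested, and 1, Pdk4, was higher, against 16.4% of all genes. The other 3, Acsl5, Acaa1b and Acot2, were not called. The median log2 fold change was -1.96 over the 36 genes and -0.36 over all genes. The WT and Sham libraries did not overlap in 33 of the 36, and the share of all genes without overlap was not computed. Calls are limma adjusted p under 0.05 on log2(FPKM + 1), adjusted by Benjamini-Hochberg over all genes tested. By role the median log2 fold change was -1.80 for mitochondrial beta-oxidation, with 10 of 10 genes lower, -1.84 for peroxisomal oxidation, with 5 of 6 lower, -3.23 for the 3 omega-oxidation genes and -2.48 for the ketone body enzymes. These differences between roles were not tested. With median-of-ratios scaling the median of all genes was -0.10 and that of the 36 genes -1.64. Of the 36 genes 32 were then lower and 2 higher, beside 3515 lower and 2834 higher of all 11728 genes.

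In both mutants the same genes were mostly higher than in WT. In RIPK1 D138N, 33 were higher than in WT against 29.8% of all genes, 1, Pdk4, was lower against 21.9%, and Pex11a and Acot2 were not called. In TNFR1/2 KO, 30 were higher than in WT against 29.6% of all genes, and 2, Acot2 and Pdk4, were lower against 17.5%. Crat, Pex11a, Cyp4a10 and Acot1 were not called there. The median log2 fold change was 1.76 in RIPK1 D138N vs WT (0.11 over all genes) and 1.52 in TNFR1/2 KO vs WT (0.14 over all genes). Of the 32 genes lower in WT than in Sham, 28 were higher in both mutants than in WT, and these comparisons share the WT libraries. The share of all genes with this joint pattern was not computed. With quantile normalization 26 were higher in RIPK1 D138N and 24 in TNFR1/2 KO than in WT, beside 3030 and 2859 of all 11728 genes. With that scaling 29 were lower in WT than in Sham, beside 3164 of all genes. Without the 2 Xist-positive libraries, which leaves 1 RIPK1 D138N library, the median log2 fold change in RIPK1 D138N vs WT was 1.63 (0.06 over all genes). The WT libraries also had the lowest hepatocyte marker sums, and all 11 hepatocyte markers tested were lower in WT than in Sham (median log2 fold change -2.43). In bulk liver, fewer cells of a type and less RNA per cell cannot be told apart. The part of the hepatocyte markers in these results was not tested.

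**Figure D1:**
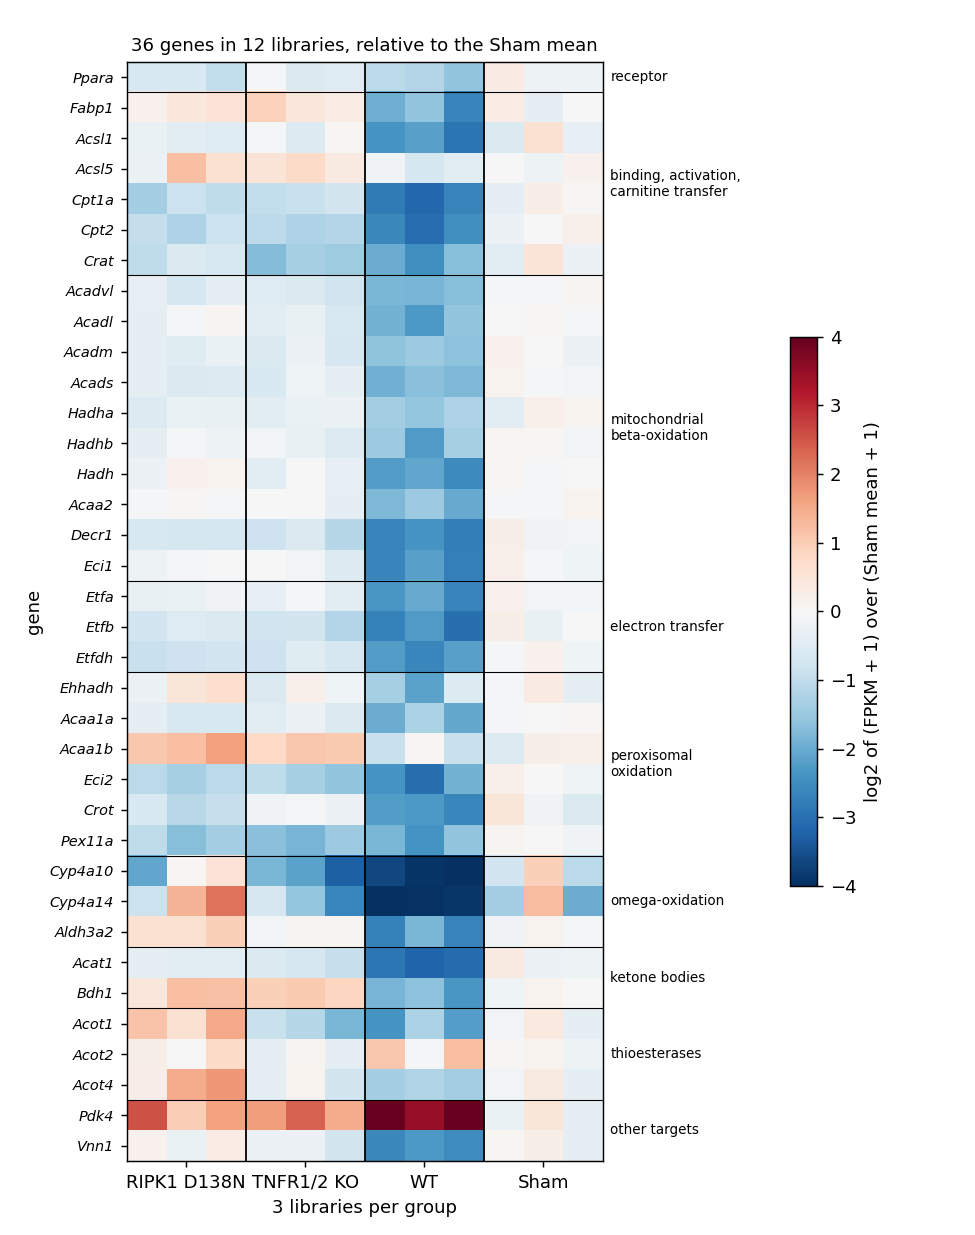
Level of the 36 genes in each of the 12 libraries (columns) as log2 of (FPKM + 1) over (Sham mean + 1), grouped by role, with the colour scale cut at ±4. The WT columns are blue in nearly every row, Pdk4 is red there, and both mutants lie nearer to Sham, with red in Acaa1b and Bdh1.

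Ppara itself, the lipid-responsive receptor (chromosome 15, 85734983 to 85802819, GRCm38), was measured at 14.6, 15.1 and 11.3 FPKM in RIPK1 D138N, 21.8, 15.1 and 16.1 FPKM in TNFR1/2 KO, 10.4, 9.66 and 7.05 FPKM in WT, and 29.6, 19.9 and 20.3 FPKM in Sham. The 3 WT libraries were the lowest of the 12 and the Sham libraries lay at the upper end, overlapping with TNFR1/2 KO only. Ppara was lower in WT than in Sham (limma log2 fold change -1.26, SE 0.212, adjusted p = 0.00024) and higher in TNFR1/2 KO than in WT (0.89, SE 0.212, adjusted p = 0.00391). The difference of RIPK1 D138N from WT was close to the threshold (0.55, SE 0.212, adjusted p = 0.0454) and missed the threshold with a pseudocount of 5 (0.41, adjusted p = 0.0599) and with either scaling (0.47 and 0.35), and likewise without RIPK1 D138N replicate 1 or 2, without the WT library of 9.66 or of 7.05 FPKM, and without both Xist-positive libraries (0.65, adjusted p = 0.121).

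Of the 6 genes of fatty acid binding, activation and carnitine transfer, 5 were lower in WT than in Sham (41.9% of all genes). Against WT, 6 of 6 were higher in RIPK1 D138N (29.8% of all genes) and 5 of 6 in TNFR1/2 KO (29.6%). Fabp1, the abundant fatty acid-binding protein of liver (chromosome 6, 71199827 to 71205023), read 7279.6, 8544 and 9349 FPKM in RIPK1 D138N, 12093, 8818 and 7913 FPKM in TNFR1/2 KO, 1642, 2161 and 1032 FPKM in WT, and 7928, 4857 and 6442 FPKM in Sham. The WT libraries lay well below all others, and the mutants overlapped Sham. Fabp1 was lower in WT than in Sham (limma log2 fold change -2.03, SE 0.296, adjusted p = 8.09e-05) and higher than WT in RIPK1 D138N (2.44, adjusted p = 2.49e-05) and in TNFR1/2 KO (2.62, adjusted p = 1.65e-05). With quantile normalization the WT to Sham difference was -0.59 (adjusted p = 0.0755).

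Cpt1a, which forms the carnitine esters at the outer membrane and is the rate-controlling step of entry (chromosome 19, 3322334 to 3385733), read 31.4, 45.5 and 40.4 FPKM in RIPK1 D138N, 41.3, 44.1 and 49.6 FPKM in TNFR1/2 KO, 10.995, 8.55 and 12.1 FPKM in WT, and 63.2, 98.7 and 86.5 FPKM in Sham. Cpt2, its partner at the inner membrane (chromosome 4, 107903981 to 107923610), read 48.3, 39.4 and 51.2 FPKM in RIPK1 D138N, 45.0, 39.5 and 41.1 FPKM in TNFR1/2 KO, 14.9, 10.3 and 16.4 FPKM in WT, and 78.5, 93.4 and 108 FPKM in Sham. For both genes the libraries formed 3 separate levels, WT lowest, both mutants between, Sham highest. Cpt1a was lower in WT than in Sham by limma (log2 fold change -2.85, SE 0.204, adjusted p = 3.38e-07) and so was Cpt2 (-2.68, SE 0.192, adjusted p = 3.41e-07). Acsl1, a long-chain acyl-CoA synthetase, averaged 87.8 ± 7.88 FPKM in RIPK1 D138N, 104 ± 21.0 in TNFR1/2 KO, 20.6 ± 5.32 in WT and 117 ± 55.0 in Sham (SD, n = 3). Acsl5, another such synthetase, was not called in WT vs Sham (-0.41, SE 0.291, adjusted p = 0.241). It was higher than WT in RIPK1 D138N (0.94, adjusted p = 0.016) and TNFR1/2 KO (0.97, adjusted p = 0.0152). RIPK1 D138N replicate 1 read 46.5 FPKM of Acsl5, within the WT range of 33.1 to 49.2 FPKM, and replicates 2 and 3 read 126 and 83.4 FPKM. Without the Xist-positive libraries its RIPK1 D138N difference from WT was 0.20 (adjusted p = 0.605), and with quantile normalization 0.13 (adjusted p = 0.709). The TNFR1/2 KO call was lost with quantile normalization (0.18, adjusted p = 0.637), without replicate 2 (0.86, adjusted p = 0.058) and without the WT library of 33.1 FPKM (0.83, adjusted p = 0.0587). Crat, the carnitine acetyltransferase, averaged 7.35 ± 1.31 FPKM in RIPK1 D138N, 3.96 ± 0.672 in TNFR1/2 KO, 2.43 ± 0.884 in WT and 12.9 ± 5.10 in Sham.

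The 10 mitochondrial beta-oxidation genes moved together: each was lower in WT than in Sham, by -1.36 to -2.59 on the log2 scale. Each was higher than WT in RIPK1 D138N (1.02 to 2.44) and in TNFR1/2 KO (1.07 to 2.30). Of all genes, 41.9%, 29.8% and 29.6% were called in these directions. The groups did not overlap in these 3 comparisons, and the share of all genes without overlap was not computed. With quantile normalization, calls against WT were lost in RIPK1 D138N for Acadm (0.29, adjusted p = 0.103) and Hadha (0.34, adjusted p = 0.16), and in TNFR1/2 KO for Acadvl (0.29, adjusted p = 0.132), Acadm (0.19, adjusted p = 0.273) and Hadha (0.41, adjusted p = 0.104), all by limma. As a percentage of the Sham mean, they stood at 62.1 to 103% in RIPK1 D138N, 55.6 to 92.7% in TNFR1/2 KO and 15.5 to 37.4% in WT. The dehydrogenases that open each round, Acadvl, Acadl, Acadm and Acads, in order of falling chain length, had similar changes in WT vs Sham (-1.80, -1.93, -1.56 and -1.80). Acadm, the medium-chain enzyme (chromosome 3, 153922357 to 153944632), read 124, 112 and 132 FPKM in RIPK1 D138N, 106, 134 and 100.1 FPKM in TNFR1/2 KO, 51.2, 56.9 and 50.6 FPKM in WT, and 181, 161 and 135 FPKM in Sham. All WT libraries were below all others, and the lowest Sham library lay only just above the highest library of either mutant.

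Hadha (chromosome 5, 30118304 to 30155162), the alpha subunit of the mitochondrial trifunctional protein, read 50.5, 62.0 and 61.2 FPKM in RIPK1 D138N, 54.2, 61.9 and 63.1 FPKM in TNFR1/2 KO, 28.1, 25.05 and 31.0 FPKM in WT, and 54.7, 86.5 and 83.6 FPKM in Sham. Its change in WT vs Sham was the smallest of the 10 (limma log2 fold change -1.36, SE 0.189, adjusted p = 5.44e-05) and was -0.43 (adjusted p = 0.0873) with quantile normalization. Hadhb (chromosome 5, 30155248 to 30184593), the beta subunit, whose promoter window is shared with Hadha, averaged 53.3 ± 6.36 FPKM in RIPK1 D138N, 49.2 ± 7.55 in TNFR1/2 KO, 19.0 ± 6.31 in WT and 61.3 ± 4.10 in Sham (SD, n = 3). The pair thus changed in the same direction by similar amounts (Hadhb -1.69, SE 0.228), although 62.4% of the 50-base stretches of Hadhb transcripts also occur in another gene, so its level is uncertain.

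Of these 10 genes, the 2 that prepare unsaturated chains had the largest changes in WT vs Sham. Decr1, the 2,4-dienoyl-CoA reductase (chromosome 4, 15917240 to 15945507), read 48.7, 46.3 and 46.5 FPKM in RIPK1 D138N, 42.5, 50.2 and 33.7 FPKM in TNFR1/2 KO, 11.2, 14.0 and 10.2 FPKM in WT, and 88.5, 68.6 and 70.6 FPKM in Sham. Eci1, the mitochondrial enoyl-CoA isomerase (chromosome 17, 24426641 to 24439348), read 108, 118 and 124 FPKM in RIPK1 D138N, 125, 113 and 84.4 FPKM in TNFR1/2 KO, 18.8, 26.8 and 17.5 FPKM in WT, and 142, 117 and 109.9 FPKM in Sham. Decr1 remained below every Sham library in both mutants, whereas Eci1 overlapped Sham in both. The limma log2 fold changes in WT vs Sham were -2.59 for Decr1 (SE 0.180, adjusted p = 2.87e-07) and -2.51 for Eci1 (SE 0.200, adjusted p = 7.19e-07). Hadh, the short-chain hydroxyacyl-CoA dehydrogenase, averaged 137 ± 20.1 FPKM in RIPK1 D138N, 112 ± 18.2 in TNFR1/2 KO, 26.9 ± 4.46 in WT and 134 ± 6.71 in Sham. Acaa2, the thiolase that closes the round, averaged 525 ± 27.5 FPKM in RIPK1 D138N, 494 ± 66.8 in TNFR1/2 KO, 159 ± 32.2 in WT and 532 ± 45.2 in Sham.

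The electron transfer flavoprotein and its dehydrogenase carry electrons from the acyl-CoA dehydrogenases to the respiratory chain. All 3 of their genes were lower in WT than in Sham, against 41.9% of all genes. Etfb, the beta subunit (chromosome 7, 43444083 to 43457800), read 461, 552 and 532 FPKM in RIPK1 D138N, 452, 471 and 351 FPKM in TNFR1/2 KO, 121, 165 and 97.7 FPKM in WT, and 924, 651 and 803 FPKM in Sham. Etfdh, the dehydrogenase (chromosome 3, 79603788 to 79629500), read 51.5, 54.0 and 55.6 FPKM in RIPK1 D138N, 54.0, 68.2 and 60.2 FPKM in TNFR1/2 KO, 19.6, 14.8 and 20.5 FPKM in WT, and 93.7, 108 and 85.5 FPKM in Sham. Both genes again lay at 3 separate levels. In WT vs Sham limma gave -2.64 for Etfb (SE 0.220, adjusted p = 1.00e-06), -2.33 for Etfdh (SE 0.167, adjusted p = 3.38e-07) and -2.33 for the alpha subunit Etfa (SE 0.187, adjusted p = 7.20e-07). Of the 50-base stretches of Etfb, 67.3% also occur in another gene, so its level is uncertain.

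**Figure D2:**
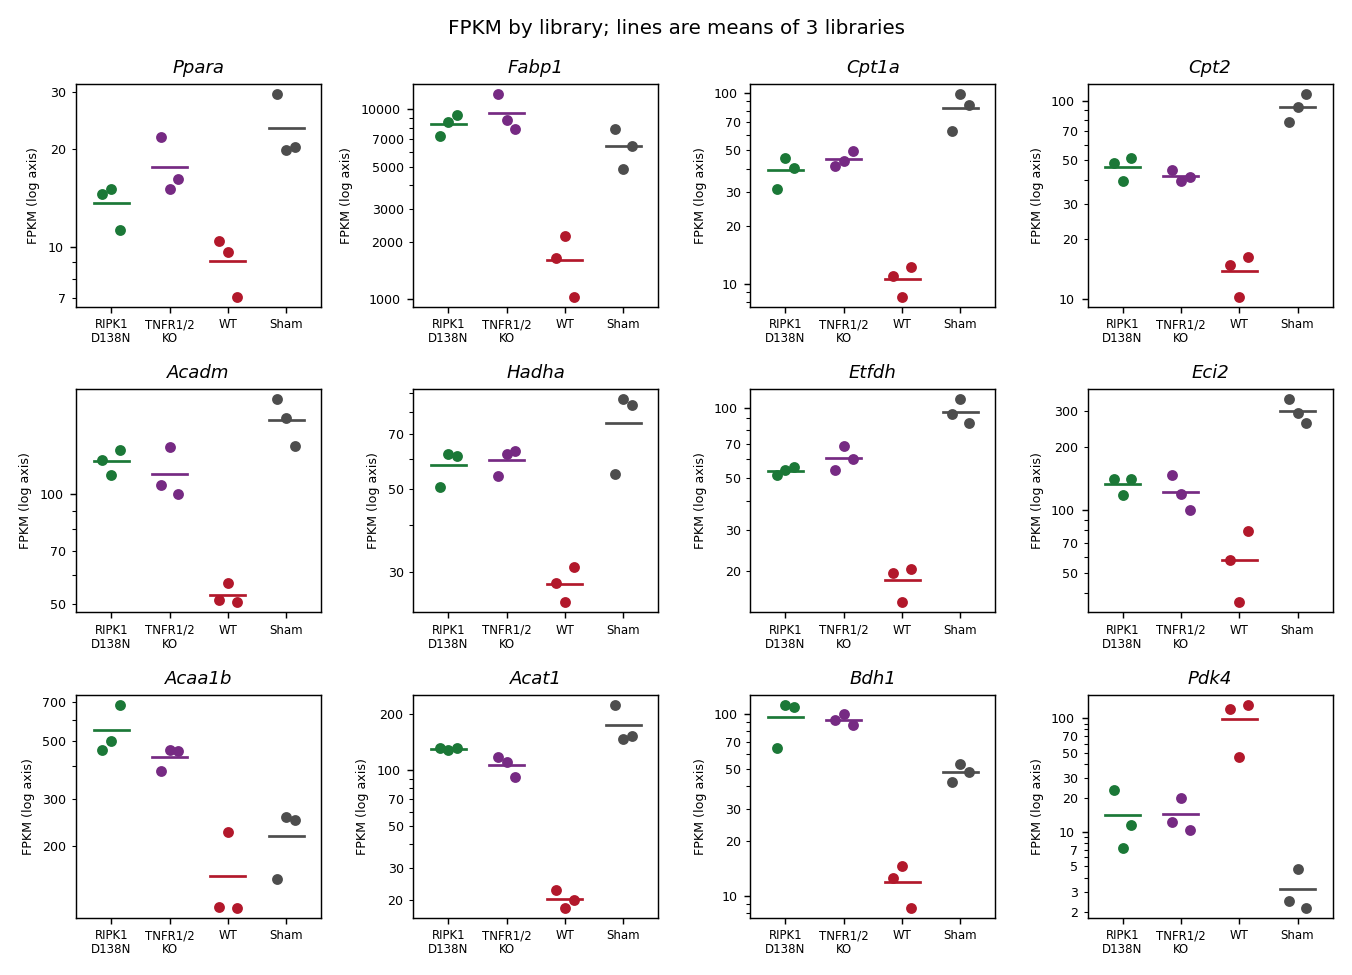
FPKM of 12 genes in each library (points, log axes) with the mean of the 3 libraries of a group (lines). All WT points lie below all other points in 10 of the 12 panels, overlap Sham in Acaa1b, and lie above all others in Pdk4.

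The peroxisomal genes ranged from -0.54 to -2.41 in WT vs Sham on the log2 scale, with 5 of 6 called lower, against 41.9% of all genes. Ehhadh, the bifunctional enzyme (chromosome 16, 21761287 to 21787807), read 59.4, 97.8 and 113 FPKM in RIPK1 D138N, 46.9, 81.6 and 61.8 FPKM in TNFR1/2 KO, 27.4, 15.1 and 47.2 FPKM in WT, and 67.4, 88.2 and 54.6 FPKM in Sham. The WT libraries spread widely, and the highest exceeded the lowest TNFR1/2 KO library. Ehhadh was lower in WT than in Sham (limma log2 fold change -1.32, SE 0.366, adjusted p = 0.00783), but by -0.38 (adjusted p = 0.454) with quantile normalization. Its rise in TNFR1/2 KO vs WT (1.17, adjusted p = 0.0191) was not called without TNFR1/2 KO replicate 2 (0.97, adjusted p = 0.0786) or without the WT library of 15.1 FPKM (0.77, adjusted p = 0.0861). In RIPK1 D138N vs WT it was 1.65 (adjusted p = 0.00224), and 1.11 (adjusted p = 0.0971) without the Xist-positive libraries.

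Acaa1b, a peroxisomal thiolase (chromosome 9, 119148023 to 119157093), read 462, 501 and 684 FPKM in RIPK1 D138N, 382, 461 and 456 FPKM in TNFR1/2 KO, 118, 226 and 117 FPKM in WT, and 149.6, 256 and 250.1 FPKM in Sham. WT overlapped Sham, while every mutant library exceeded every Sham library. Acaa1b was not called in WT vs Sham (limma log2 fold change -0.54, SE 0.285, adjusted p = 0.122). It was higher in RIPK1 D138N than in WT (1.88, adjusted p = 0.000139) and in TNFR1/2 KO than in WT (1.56, adjusted p = 0.000655). Acaa1a, its near copy, was instead lower in WT than in Sham (-1.76, SE 0.206, adjusted p = 1.41e-05), at 112 ± 13.4 FPKM in RIPK1 D138N, 122 ± 14.4 in TNFR1/2 KO, 49.4 ± 16.3 in WT and 164 ± 6.33 in Sham (SD, n = 3). The paralogs share 35.5% of the 50-base stretches of Acaa1b and 34.0% of those of Acaa1a with other genes, and the sources used here do not give how fragments were split between them.

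Eci2, the peroxisomal isomerase (chromosome 13, 34977748 to 35027096), read 141, 119 and 140.4 FPKM in RIPK1 D138N, 147, 119 and 99.7 FPKM in TNFR1/2 KO, 57.6, 36.3 and 79.1 FPKM in WT, and 340.2, 293 and 262 FPKM in Sham. Crot, which exports medium-chain products as carnitine esters (chromosome 5, 8966033 to 8997324), read 78.8, 56.0 and 64.1 FPKM in RIPK1 D138N, 111, 116 and 102 FPKM in TNFR1/2 KO, 24.7, 24.05 and 19.0 FPKM in WT, and 171, 111 and 81.3 FPKM in Sham. Pex11a, a membrane protein of peroxisome proliferation (chromosome 7, 79735957 to 79743131), read 37.1, 22.6 and 29.2 FPKM in RIPK1 D138N, 23.3, 20.6 and 27.3 FPKM in TNFR1/2 KO, 20.9, 13.8 and 24.9 FPKM in WT, and 70.0 to 82.9 FPKM in Sham. All 3 were lower in WT than in Sham by limma, with log2 fold changes of -2.41 for Eci2 (SE 0.251, adjusted p = 5.55e-06), -2.31 for Crot (SE 0.239, adjusted p = 5.32e-06) and -1.93 for Pex11a (SE 0.226, adjusted p = 1.40e-05). Pex11a in the mutants overlapped WT and stayed far below Sham, and it was not called against WT in RIPK1 D138N (0.56, adjusted p = 0.0521) or in TNFR1/2 KO (0.27, adjusted p = 0.344). The RIPK1 D138N call is close to the threshold and passed without replicate 2 (0.74, adjusted p = 0.0237), without 1 WT library (0.74, adjusted p = 0.026) and without the Xist-positive libraries (0.91, adjusted p = 0.0356). With quantile normalization the calls against WT were also lost for Eci2 in RIPK1 D138N (0.32, adjusted p = 0.374) and TNFR1/2 KO (0.23, adjusted p = 0.537), for Ehhadh in RIPK1 D138N (0.92, adjusted p = 0.0752) and TNFR1/2 KO (0.49, adjusted p = 0.341), and for Acaa1a in RIPK1 D138N (0.36, adjusted p = 0.136).

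**Figure D3:**
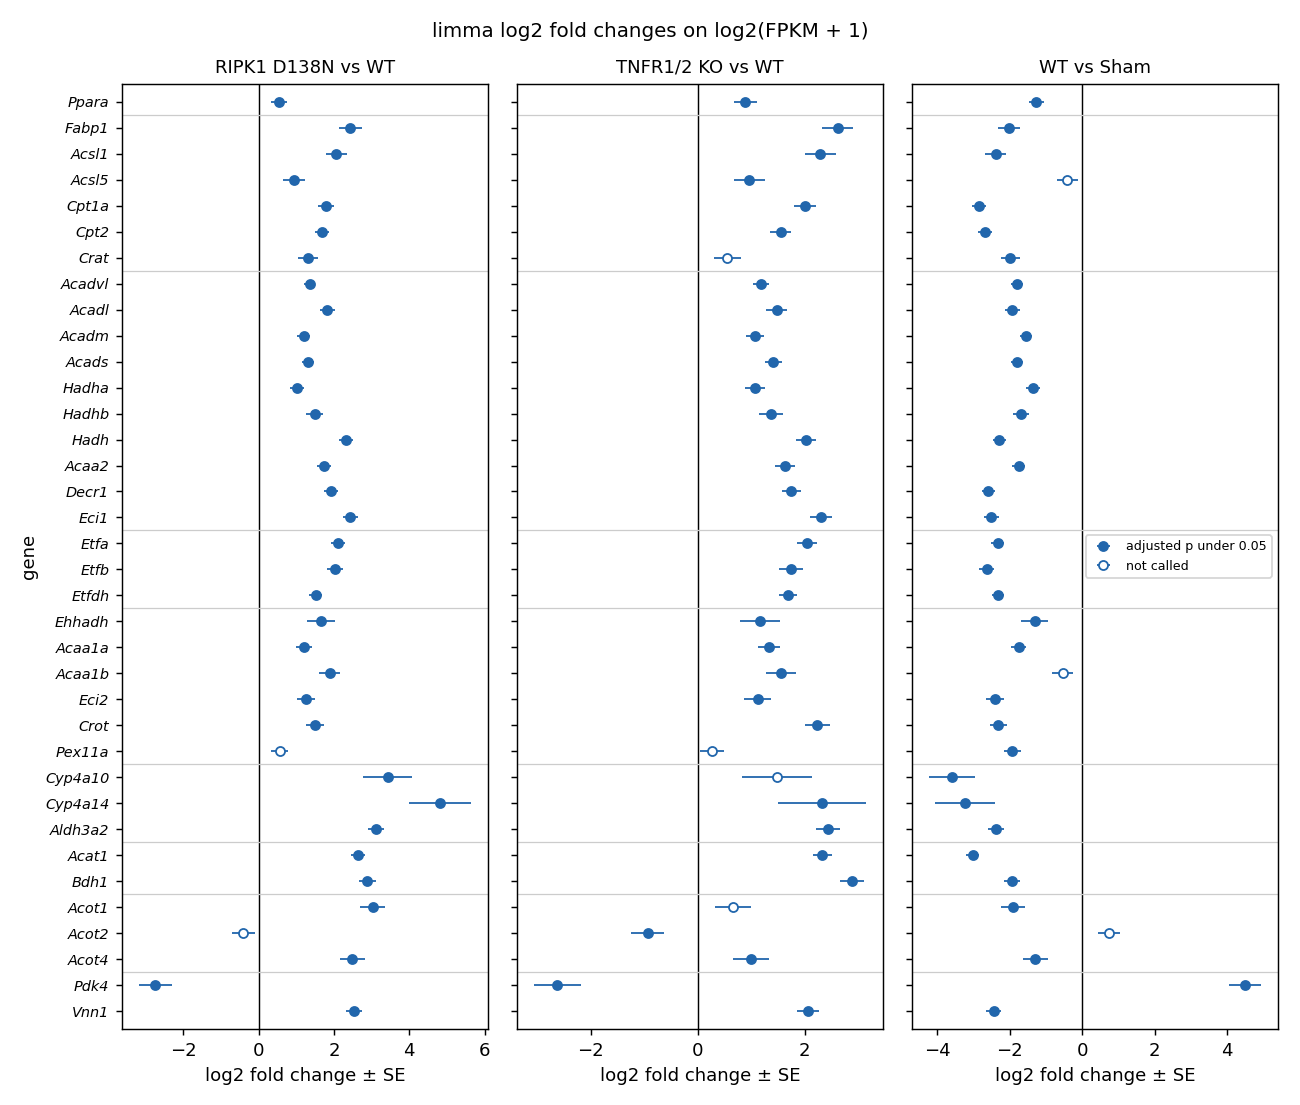
Log2 fold changes of the 36 genes in RIPK1 D138N vs WT, TNFR1/2 KO vs WT and WT vs Sham (points, bars ± SE, n = 3 libraries a group), filled where the limma adjusted p is under 0.05. The 2 mutant panels lie mostly right of 0 and the WT vs Sham panel mostly left of it, with Pdk4 and Acot2 on the other side in all 3.

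The omega-oxidation genes had the lowest median fold change of the roles in WT vs Sham, and both cytochromes among them varied widely between libraries. Cyp4a10, a fatty acid omega-hydroxylase and a textbook PPARA target (chromosome 4, 115518264 to 115533649), read 40.7, 185 and 258 FPKM in RIPK1 D138N, 48.5, 38.2 and 17.1 FPKM in TNFR1/2 KO, 12.97, 10.5 and 8.96 FPKM in WT, and 101, 338 and 81.2 FPKM in Sham. Cyp4a14, its neighbour with the same reaction (chromosome 4, 115486200 to 115496142), read 40.9, 193 and 344 FPKM in RIPK1 D138N, 46.5, 25.1 and 11.5 FPKM in TNFR1/2 KO, 3.85, 3.91 and 4.15 FPKM in WT, and 28.6, 179 and 18.1 FPKM in Sham. In both genes the Xist-positive RIPK1 D138N libraries were high, replicate 1 lay within the TNFR1/2 KO range, and the same single Sham library stood above the other 2. WT was lowest in each. In WT vs Sham limma gave -3.60 for Cyp4a10 (SE 0.645, adjusted p = 0.0004) and -3.23 for Cyp4a14 (SE 0.825, adjusted p = 0.00465), and -2.97 (adjusted p = 0.00185) and -2.26 (adjusted p = 0.019) without that Sham library. Of the 50-base stretches of Cyp4a10, 30.5% also occur in other genes.

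In RIPK1 D138N vs WT the log2 fold changes were 3.43 for Cyp4a10 (SE 0.645, limma adjusted p = 0.00071) and 4.83 for Cyp4a14 (SE 0.825, adjusted p = 0.000344). Without the Xist-positive libraries they were 1.83 (adjusted p = 0.0509) and 3.08 (adjusted p = 0.0249), so the first call was lost. In TNFR1/2 KO vs WT they were 1.48 for Cyp4a10 (adjusted p = 0.0758), which passed when only these 2 groups entered the fit (adjusted p = 0.00542) or without replicate 3 (1.91, adjusted p = 0.045), and 2.33 for Cyp4a14 (adjusted p = 0.0338). The Cyp4a14 call was lost without TNFR1/2 KO replicate 1 (1.87, adjusted p = 0.122) or 2 (2.30, adjusted p = 0.0781) and without any 1 of the WT libraries (2.31 to 2.35). Aldh3a2, the fatty aldehyde dehydrogenase of the same route (chromosome 11, 61223417 to 61267464), was steadier, at 105, 107 and 133 FPKM in RIPK1 D138N, 64.5, 74.7 and 73.9 FPKM in TNFR1/2 KO, 9.78, 18.8 and 10.02 FPKM in WT, and 62.8, 76.8 and 67.2 FPKM in Sham. Every RIPK1 D138N library, the Xist-negative replicate included, exceeded all libraries of the other groups, and TNFR1/2 KO overlapped Sham. Aldh3a2 was lower in WT than in Sham (-2.39, SE 0.221, adjusted p = 2.26e-06) and higher than WT in RIPK1 D138N (3.12, adjusted p = 7.70e-07) and TNFR1/2 KO (2.43, adjusted p = 3.54e-06).

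Both ketone body genes were lower in WT than in Sham (41.9% of all genes). Both were higher than WT in RIPK1 D138N (29.8%) and in TNFR1/2 KO (29.6%). The fall of Acat1 in WT was exceeded among the 36 genes only by those of Cyp4a10 and Cyp4a14. Acat1, the mitochondrial acetoacetyl-CoA thiolase (chromosome 9, 53580522 to 53610382), read 132, 128 and 131 FPKM in RIPK1 D138N, 117, 110.2 and 91.7 FPKM in TNFR1/2 KO, 22.7, 18.3 and 20.0 FPKM in WT, and 225, 148 and 153 FPKM in Sham. Bdh1, which converts acetoacetate to 3-hydroxybutyrate (chromosome 16, 31422280 to 31458901), read 65.1, 112 and 109 FPKM in RIPK1 D138N, 92.4, 99.0 and 86.7 FPKM in TNFR1/2 KO, 12.5, 14.5 and 8.62 FPKM in WT, and 42.2, 53.2 and 47.7 FPKM in Sham. Acat1 in both mutants lay between WT and Sham, whereas every mutant library of Bdh1 exceeded every Sham library. By limma Acat1 was lower in WT than in Sham (log2 fold change -3.03, SE 0.184, adjusted p = 1.03e-07), as was Bdh1 (-1.94, SE 0.229, adjusted p = 1.45e-05). Against WT, Bdh1 was 2.89 higher in RIPK1 D138N (adjusted p = 1.39e-06) and 2.89 higher in TNFR1/2 KO (adjusted p = 1.52e-06), on the log2 scale.

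The acyl-CoA thioesterases, which release free fatty acids from acyl-CoA, split by gene and by genotype. Acot1, the cytosolic enzyme (chromosome 12, 84009490 to 84018371), read 49.7, 33.8 and 64.1 FPKM in RIPK1 D138N, 11.4, 9.36 and 5.44 FPKM in TNFR1/2 KO, 3.52, 8.48 and 3.94 FPKM in WT, and 20.2, 28.8 and 16.9 FPKM in Sham. All RIPK1 D138N libraries were above all Sham libraries, and all TNFR1/2 KO libraries were below them and overlapped WT. Acot4, the peroxisomal enzyme (chromosome 12, 84038379 to 84048601), read 7.02, 17.5 and 21.0 FPKM in RIPK1 D138N, 4.14, 6.29 and 2.98 FPKM in TNFR1/2 KO, 1.58, 1.85 and 1.51 FPKM in WT, and 5.14, 7.56 and 4.17 FPKM in Sham. Its RIPK1 D138N replicate 1 lay within the Sham range and the Xist-positive libraries above it.

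In WT vs Sham limma gave -1.91 for Acot1 (SE 0.335, adjusted p = 0.000331) and -1.29 for Acot4 (SE 0.338, adjusted p = 0.00539). Acot2, the mitochondrial enzyme, averaged 4.87 ± 1.64 FPKM in RIPK1 D138N, 3.01 ± 0.794 in TNFR1/2 KO, 7.13 ± 3.39 in WT and 3.56 ± 0.563 in Sham (SD, n = 3). Its WT libraries read 8.53, 3.27 and 9.60 FPKM, so 2 were above and 1 within the Sham range, and WT vs Sham was 0.74 (SE 0.311, adjusted p = 0.0579). That call passed with a pseudocount of 5 (0.46, adjusted p = 0.0493), with median-of-ratios scaling (1.01, adjusted p = 0.0115) and without the WT library of 3.27 FPKM (1.15, adjusted p = 0.00192). Acot2 was lower in TNFR1/2 KO than in WT (-0.93, SE 0.311, adjusted p = 0.0255), a call lost without TNFR1/2 KO replicate 1 or 3, without either of the 2 high WT libraries and with no filter on low values. Of the 50-base stretches of Acot1 and Acot2, 33.2% and 27.7% also occur in other genes.

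**Figure D4:**
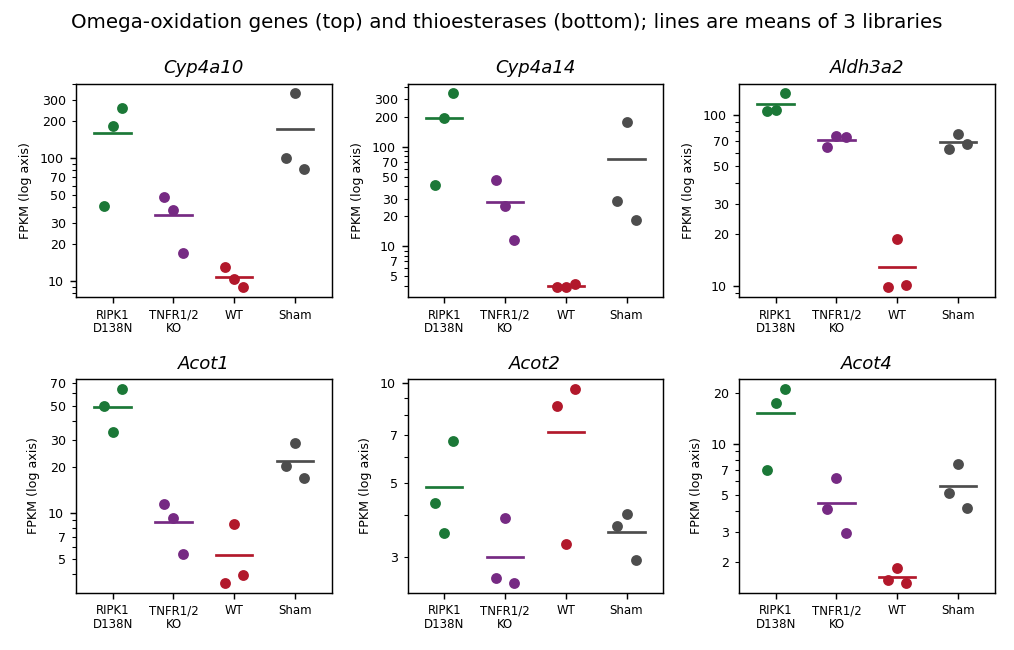
FPKM in each library (points, log axes) with group means (lines) for the 3 omega-oxidation genes (top) and the 3 acyl-CoA thioesterases (bottom). RIPK1 D138N replicate 1, the leftmost point of its group, lies below replicates 2 and 3 in Cyp4a10, Cyp4a14 and Acot4 but not in Acot1.

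Pdk4 was the single member called higher in WT than in Sham. Its product inhibits pyruvate dehydrogenase and so spares glucose when fatty acids are burned. Pdk4 (chromosome 6, 5483351 to 5496309) read 23.3, 7.22 and 11.6 FPKM in RIPK1 D138N, 12.3, 20.1 and 10.5 FPKM in TNFR1/2 KO, 121, 45.5 and 131 FPKM in WT, and 2.49, 4.80 and 2.18 FPKM in Sham. The 3 levels did not overlap, with WT highest and both mutants between WT and Sham. Pdk4 was higher in WT than in Sham (limma log2 fold change 4.50, SE 0.446, adjusted p = 3.72e-06). It was lower than WT in RIPK1 D138N (-2.74, SE 0.446, adjusted p = 0.000237) and TNFR1/2 KO (-2.62, SE 0.446, adjusted p = 0.000385). Vnn1, the pantetheinase vanin 1 (chromosome 10, 23894688 to 23905343), read 24.4, 18.0 and 26.6 FPKM in RIPK1 D138N, 18.4, 18.2 and 12.5 FPKM in TNFR1/2 KO, 2.81, 3.59 and 2.95 FPKM in WT, and 22.9, 25.5 and 16.6 FPKM in Sham. It followed the majority, with WT lowest and both mutants overlapping Sham (WT vs Sham -2.45, SE 0.211, adjusted p = 1.30e-06). The WT library with 45.5 FPKM of Pdk4 also had the lowest Cpt1a, Cpt2, Ehhadh, Pex11a and Acot2 of the 3 and the highest Fabp1, Acaa1b and Acot1.

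The mutants were next set against Sham, to show how far each gene lay from the sham level. In RIPK1 D138N, 10 of the 36 genes were lower than in Sham (22.7% of all genes) and 6 were higher (7.51%). In TNFR1/2 KO, 13 were lower (18.1%) and 3 were higher (7.46%). These comparisons share the Sham libraries. The median log2 fold changes were -0.22 and -0.38, beside -0.22 and -0.18 over all genes, so in RIPK1 D138N the median of the 36 genes equalled that of all genes.

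Genes called lower than Sham in both mutants were Cpt1a, Cpt2, Acadvl, Decr1, Etfdh, Eci2 and Pex11a. Of these 7, Cpt1a, Cpt2, Eci2 and Pex11a were lower in both with median-of-ratios scaling, and Cpt2 and Pex11a with quantile normalization. Cpt1a stood at 47.2% of the Sham mean in RIPK1 D138N, 54.3% in TNFR1/2 KO and 12.8% in WT (limma log2 fold change vs Sham -1.06, adjusted p = 0.00254, in RIPK1 D138N and -0.85, adjusted p = 0.00981, in TNFR1/2 KO). Cpt2 stood at 49.5%, 44.8% and 14.8% in RIPK1 D138N, TNFR1/2 KO and WT (-0.99, adjusted p = 0.00254, and -1.13, adjusted p = 0.00135). Eci2 stood at 44.7%, 40.9% and 19.3%, and Pex11a at 38.7%, 30.9% and 25.9% in the same groups. Decr1 stood at 62.1% in RIPK1 D138N and 55.6% in TNFR1/2 KO, and Etfdh at 56.0% and 63.4%. Other mitochondrial genes lay nearer to Sham and were not called, such as Acaa2 (98.7% in RIPK1 D138N and 92.7% in TNFR1/2 KO) and Eci1 (94.8% and 87.4%). Differences between genes were not tested.

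Genes called higher than Sham in both mutants were Acaa1b, at 251% of the Sham mean in RIPK1 D138N and 198% in TNFR1/2 KO, Bdh1, at 199.97% and 194%, and Pdk4, at 445% and 454%. The limma log2 fold changes vs Sham in RIPK1 D138N and TNFR1/2 KO were 1.34 (adjusted p = 0.00431) and 1.02 (adjusted p = 0.0209) for Acaa1b, 0.95 (adjusted p = 0.00863) and 0.95 (adjusted p = 0.0099) for Bdh1, and 1.76 (adjusted p = 0.0109) and 1.88 (adjusted p = 0.00892) for Pdk4. All 3 were called in both mutants with median-of-ratios scaling and with quantile normalization too. With quantile normalization Fabp1 was also called higher than Sham by limma, in RIPK1 D138N (1.06, adjusted p = 0.0139) and in TNFR1/2 KO (1.11, adjusted p = 0.0119). The Acaa1b call in TNFR1/2 KO was lost without replicate 2 (adjusted p = 0.0543), replicate 3 (adjusted p = 0.0642) or the Sham library of 149.6 FPKM (0.77, adjusted p = 0.0773). Another 3 genes were called higher than Sham in RIPK1 D138N, Aldh3a2 (0.73, adjusted p = 0.0258), Acot1 (1.12, adjusted p = 0.0243) and Acot4 (1.19, adjusted p = 0.019), and in TNFR1/2 KO these stood at 0.04, -1.26 and -0.29 from Sham. Counts of genes lower than Sham depended on the scaling: 5 in RIPK1 D138N and 6 in TNFR1/2 KO with median-of-ratios scaling, and 4 and 5 with quantile normalization. Over all 11728 genes, 1419 in RIPK1 D138N and 1193 in TNFR1/2 KO were lower with median-of-ratios scaling, and 1347 and 1180 with quantile normalization. Without the Xist-positive libraries, which leaves 1 RIPK1 D138N library assumed to vary like the other groups, 1 gene (Cpt1a) was lower and 1 (Pdk4) higher, and Bdh1 was at 0.45 (adjusted p = 0.331). Without RIPK1 D138N replicate 3 the counts for that group were 5 lower and 3 higher, beside 1720 and 529 of all genes. Without TNFR1/2 KO replicate 3 there were 8 lower in that group, beside 1306 of all genes. Without the Sham library of 2.18 FPKM Pdk4 there were 3 higher in RIPK1 D138N, beside 681 of all genes. With all libraries, 2658 of all genes were lower and 881 higher in RIPK1 D138N, and 2127 were lower in TNFR1/2 KO.

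**Figure D5:**
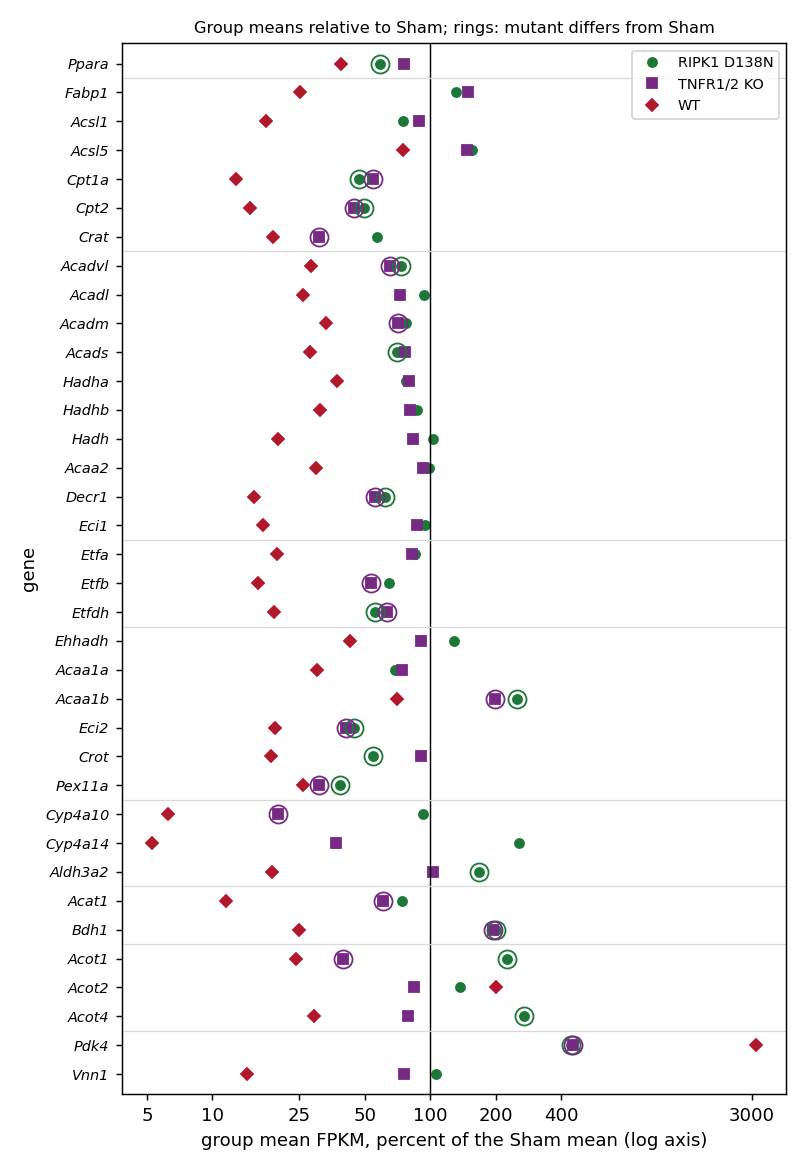
Group mean FPKM of each gene as a percentage of the Sham mean (log axis) in RIPK1 D138N, TNFR1/2 KO and WT, with a ring where a mutant was called different from Sham by limma. WT lies at 42.6% or less in all genes but Acsl5, Acaa1b, Acot2 and Pdk4. The mutants lie on both sides of 100%, and most genes lie below it in each mutant.

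Set directly against each other, the mutants differed in 1 gene of the 36, against 0.929% of all genes called in either direction, 0.35% higher and 0.58% lower in RIPK1 D138N. At an unadjusted limma p under 0.05, 7 of the 36 genes were higher and 1 was lower in RIPK1 D138N than in TNFR1/2 KO. The share of all genes at that threshold was not computed, and the shares just given are at adjusted p. Acot1 was higher in RIPK1 D138N than in TNFR1/2 KO (limma log2 fold change 2.37, SE 0.335, adjusted p = 0.00491), with 49.2 ± 15.2 FPKM in RIPK1 D138N and 8.73 ± 3.02 FPKM in TNFR1/2 KO (SD, n = 3) and no overlap. Without the Xist-positive libraries the difference was 2.43 (adjusted p = 0.0485). The other 35 genes ranged from -0.73 (Crot, SE 0.239) to 2.497 (Cyp4a14, SE 0.825), and a miss of the threshold does not show that they are equal. Without RIPK1 D138N replicate 1, which leaves the Xist-positive pair, Cyp4a10 (2.74, adjusted p = 0.00793), Cyp4a14 (3.37, adjusted p = 0.0197) and Acot4 (1.93, adjusted p = 0.000742) were called as well. Calls over all 11728 genes also rose in that fit, to 273 higher and 315 lower in place of 41 and 68. Among other pathway genes, chosen after their values were seen, Cyp4a12a, an omega-hydroxylase known for male-biased expression, read 160 FPKM in RIPK1 D138N replicate 1 and 0.158 and 0.640 FPKM in replicates 2 and 3, while Acot3 read 3.11, 47.0 and 55.8 FPKM. The Xist-positive libraries thus differ from replicate 1 in both directions among these genes, and they also held more endothelial marker RNA, with sums of 123 and 82.3 FPKM in replicates 2 and 3 and 17.5 FPKM in replicate 1. The part of sex or of endothelial cells in the omega-oxidation and thioesterase results was not tested.

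Another 60 genes of lipid oxidation and PPARA response, listed from pathway knowledge, were read in the same fit, and 58 were tested. In WT vs Sham 46 were lower (41.9% of all genes) and 2 higher (16.4%), with a median log2 fold change of -1.89. Against WT, 39 were higher (29.8% of all genes) and 5 lower (21.9%) in RIPK1 D138N, and 37 higher (29.6%) and 4 lower (17.5%) in TNFR1/2 KO. None was called between the mutants by limma, where 12 had an unadjusted p under 0.05. The share of all genes at that unadjusted threshold was not computed. Large falls in WT among genes whose groups did not overlap included G0s2, an inhibitor of triglyceride lipase, and Hacl1, a peroxisomal lyase of alpha-oxidation.

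G0s2 averaged 82.2 ± 27.4 FPKM in RIPK1 D138N, 49.98 ± 16.1 in TNFR1/2 KO, 6.95 ± 1.73 in WT and 189 ± 122 in Sham (SD, n = 3; WT vs Sham -4.28, SE 0.504, limma adjusted p = 1.44e-05). Hacl1 averaged 99.3 ± 35.7 FPKM in RIPK1 D138N, 40.4 ± 5.62 in TNFR1/2 KO, 22.7 ± 14.1 in WT and 191 ± 55.6 in Sham (-3.23, SE 0.466, adjusted p = 7.28e-05). The 2 that rose in WT were Lpin2, a phosphatidate phosphatase, and Txnip, a thioredoxin-binding protein, at 1.52 (SE 0.201, adjusted p = 3.55e-05) and 0.96 (SE 0.264, adjusted p = 0.00738). Lpin2 averaged 38.9 ± 7.77 FPKM in RIPK1 D138N and 43.0 ± 4.58 in TNFR1/2 KO, against 96.9 ± 11.1 in WT and 33.5 ± 7.90 in Sham.

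Markers of other liver cells also differed between the groups, in orders of their own. In WT vs Sham, where 41.9% of all genes were lower and 16.4% higher, Kupffer cell and macrophage markers were lower in 6 of 8 tested genes, stellate cell and fibroblast markers higher in 4 of 8, cholangiocyte markers higher in 3 of 4, endothelial markers higher in 1 and lower in 2 of 7, and neutrophil markers changed by limma in 0 of 5, also at an unadjusted p under 0.05. Summed stellate markers were 135 to 156 FPKM in RIPK1 D138N, 58.1 to 93.1 in TNFR1/2 KO, 132 to 161 in WT and 57.1 to 84.0 in Sham. Summed Kupffer markers were 24.4 to 31.2 FPKM in RIPK1 D138N, 13.1 to 20.4 in TNFR1/2 KO, 37.1 to 48.6 in WT and 88.0 to 133 in Sham. Stellate sums thus overlapped in RIPK1 D138N and WT, where Dcn alone read 114 to 121 and 92.2 to 115 FPKM. Of the 8 stellate markers, 3 were higher and 2 lower in RIPK1 D138N than in WT, beside 29.8% and 21.9% of all genes. Kupffer sums were lower in both mutants than in WT. Of the 8 Kupffer markers tested, 3 were lower in RIPK1 D138N than in WT (21.9% of all genes) and 6 in TNFR1/2 KO (17.5%). Clec4f read 2.85 to 5.54 FPKM in RIPK1 D138N, overlapping the 3.90 to 4.94 FPKM of WT. Summed sinusoidal endothelial markers were 17.5 to 123 FPKM in RIPK1 D138N, 11.96 to 57.0 in TNFR1/2 KO, 17.2 to 21.0 in WT and 29.8 to 51.2 in Sham. Muscle markers, which would bring their own fatty acid oxidation genes, summed to at most 0.829 FPKM in any library. Across 11719 genes Spearman's rho between transcript length and the WT vs Sham log2 fold change was 0.309, a description over genes that share libraries, while the median length of the 36 genes, 2916.5 bases, was close to the 2893 bases of all genes. The part of cell types and of transcript length in the results was not tested.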

How the data were processed

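RNA sequencing of mouse liver in 12 libraries was used as deposited by the authors, as FPKM values per gene in 1 table. STAR 2.5.4a, Cufflinks 2.2.1, Cuffdiff and the mm10 build are named in the submitters' processing notes. Fragment counts were not used here, so no counting intervals are given. The sources used here do not give strand use in counting. Columns of RIPK1 D138N and TNFR1/2 KO were matched to replicate numbers, and those of WT and Sham to their group only.

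Values were tested as log2(FPKM + 1) with limma 3.58.1 in R 4.3.3, with a mean-variance trend and 1 mean per group over all 12 libraries. On this scale the fold change of a low gene is understated. Genes that reached 1 FPKM in 3 or more libraries were tested, and p-values were adjusted by Benjamini-Hochberg over these in each comparison. The procedure was tested on simulated data. Means are given ± SD. Coordinates, transcript lengths and the share of 50-base stretches found in other genes come from GENCODE M21 (GRCm38), and promoters from RefSeq (GRCm38.p6), read with Python 3.11.15.

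The members, gene lists and tests were chosen with earlier results of these data known. All 36 members are named. Values per library are given for 18 set genes, for the 2 largest called changes of each role in WT vs Sham, and for members called between the mutants or against the majority. Of the other pathway genes, those named come from the 4 largest falls and rises in WT vs Sham of genes whose groups do not overlap and whose higher group averages at least 5 FPKM, and some of these are not reported here. Cyp4a12a and Acot3 fall outside that rule. Alternatives were other pseudocounts, filters and scalings, fits of 2 groups, no trend, a replicate block, and leaving out libraries.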

Additional observations from a re-analysis of the deposited data

Results flagged for a closer look

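Acot1 is set apart because its level differed between the mutants when they were compared directly (RIPK1 D138N vs TNFR1/2 KO, log2 fold change 2.37, SE 0.335, limma adjusted p = 0.00491, higher in 3 of 3 RIPK1 D138N libraries than in any TNFR1/2 KO library). The adjusted p was 0.0487 with only these 2 groups in the fit, 0.0485 without the Xist-positive libraries and 0.224 with a replicate block. Of the 50-base stretches of Acot1, 33.2% also occur in other genes. In 36 genes compared between the mutants, this was the single call.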

How the results depend on the processing

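Of the fold changes recomputed under each alternative, 2132 kept direction and side of the threshold, 152 lost the call and 17 gained one. Of 71 further fold changes, not called between the mutants or against Sham, some, such as Cyp4a10 in RIPK1 D138N vs Sham, changed sign, in 74 recomputations in all, and 13 recomputations gave a call. With quantile normalization 3 values not called in WT vs Sham or in a mutant vs WT changed sign: Acsl5 (0.61) and Acaa1b (0.64) in WT vs Sham and Pex11a (-0.23) in TNFR1/2 KO vs WT. In WT vs Sham, 2 genes instead of 1 were higher with a pseudocount of 5, median-of-ratios scaling and quantile normalization, Acot2 being added. In TNFR1/2 KO vs WT, 1 gene instead of 2 was lower with no filter and when genes had to average 5 FPKM. Most calls in RIPK1 D138N vs Sham were lost without the Xist-positive libraries, which leaves 1 library in that group. In the same comparison 3 instead of 6 were higher with no filter. There, 5 and 4 instead of 10 were lower with median-of-ratios scaling and with quantile normalization. In TNFR1/2 KO vs Sham, 6 and 5 instead of 13 were lower with these scalings. Higher than WT with quantile normalization were 26 instead of 33 in RIPK1 D138N and 24 instead of 30 in TNFR1/2 KO. Causes were not tested.

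Leaving out 1 library at a time changed the counts of members, given here with those of all genes in brackets. In WT vs Sham 1 to 2 were higher (1613 to 2010) and 32 to 33 lower (4393 to 4685). In RIPK1 D138N vs WT 31 to 33 were higher (2991 to 3359) and 1 to 2 lower (2001 to 2784). In TNFR1/2 KO vs WT 26 to 31 were higher (2951 to 3211) and 1 to 2 lower (1522 to 2282). In RIPK1 D138N vs Sham 3 to 8 were higher (529 to 1104) and 5 to 10 lower (1720 to 2528). In TNFR1/2 KO vs Sham 2 to 3 were higher (550 to 712) and 8 to 13 lower (1306 to 1909). Between the mutants, 1 to 4 were higher in RIPK1 D138N (15 to 273). The replicate block could be fitted only between the mutants, since WT and Sham columns carry no number, and called 0 members (limma), Acot1 having an adjusted p of 0.224. Same-numbered libraries did not deviate together (correlations -0.0975, -0.202 and 0.0574). With 3 libraries a group, these values cannot decide whether the numbers pair them. Over all genes the block called 7 higher and 4 lower in place of 41 and 68. The FPKM give no counts, which leaves the precision of low genes such as Acot2 and Acot4 unknown.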
